A study of Mus musculus with 12 samples.

Results

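The genes described here encode the machinery of oxidative phosphorylation. They are the protein-coding genes whose symbols start with Nduf, Cox followed by a number, Atp5, Uqcr, Sdha to Sdhd or Sdhaf, and the protein-coding genes of the mitochondrial genome, whose symbols start with mt-. A gene was kept where its counts over the 12 libraries summed to 120 or more, which left 114 genes, 101 nuclear encoded and 13 mitochondrially encoded, of the 55536 annotated genes in the count table. Of 120 genes with matching symbols, 6 fell below this minimum: Cox4i2, Cox7b2, Cox8b, Cox8c, Ndufa4l2 and a second entry named Atp5o. All 114 also passed the filter on low counts applied before testing.

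RNA was measured by bulk sequencing of mouse CD8+ T cells from OT-I mice, whose transgenic T cell receptor recognizes the ovalbumin peptide SIINFEKL presented by H-2Kb. For the Ag group (5 libraries), OT-I cells marked by CD45.1 were transferred into C57BL/6J hosts that then received the peptide with rat IgG as control. For the Ag+Costim group (5 libraries), the hosts received the peptide with agonist antibodies against the costimulatory receptors CD134 (OX40, clone OX-86) and CD137 (4-1BB, clone 3H3). Naive cells (2 libraries) came from OT-I mice with no transfer and no treatment, so transfer and treatment cannot be told apart in comparisons with Naive. The labels place harvest at 4 days and the methods of the study at 3.5 days. All groups carry the OT-I receptor, and donor cells were sorted from spleen and lymph nodes of hosts that still had their own lymphocytes. RNA was amplified with an oligo(dT)-primed full-length kit, which selects RNA with a poly(A) tail, and the labels do not say whether libraries came from separate animals, so p-values measure the spread between these libraries only.

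Oxidative phosphorylation takes electrons from NADH and succinate and passes them along the inner mitochondrial membrane to oxygen, and the proton gradient built on the way drives ATP synthesis. Complex I (NADH dehydrogenase) and complex II (succinate dehydrogenase) feed electrons to ubiquinone. Complex III (cytochrome bc1) passes them to cytochrome c, complex IV (cytochrome c oxidase) passes them to oxygen, and ATP synthase makes ATP. Most subunits are made from nuclear genes and imported, while a small set of membrane subunits of complexes I, III, IV and ATP synthase is made from the mitochondrial genome, and complex II is wholly nuclear encoded. Naive T cells are small and quiescent, and activated CD8+ T cells enlarge, divide and build mitochondria.

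Annotated counts per library ranged from 39994606 to 49258758 in 11 libraries, and the library Ag 4 stood apart with 23976932. Ag 4 also had the highest share of mitochondrially encoded counts and the highest summed level of 6 erythroid marker genes, 6380 CPM (counts scaled to a common TMM library size), against at most 2640 in the other Ag libraries, 14.5 to 222 in Ag+Costim, and 2070 and 150 in Naive. Ag+Costim had lower calls than Ag for all 6 erythroid genes, globins among them. The CD8 T cell markers (Cd8a, Cd8b1, Cd3d, Cd3e, Cd3g, Trac) summed to 7120 to 10800 CPM in Ag, 3970 to 5460 in Ag+Costim and 9000 to 9660 in Naive, and Cd4 did not exceed 2.44 CPM in any library. The 5 B cell markers summed to 1050 and 1060 CPM in Naive, 1110 to 1840 in Ag and 578 to 1190 in Ag+Costim. Against Naive, 4 of the 5 had higher calls in Ag and 0 lower, with a median log2 fold change of 4.86. In Ag+Costim 3 of the 5 had higher calls and 1 lower, with a median of 3.38. The sums therefore do not show the size of the change of most of these markers. The 7 myeloid markers summed to at most 186 CPM and the 2 natural killer cell markers to at most 14.5.  The 5 proliferation genes were called higher in both transferred groups and summed to 30.4 and 31.7 CPM in Naive, 437 to 889 in Ag and 1850 to 2330 in Ag+Costim. The part of these other cells and of division in the values below was not tested, and in bulk RNA fewer cells of a type and less RNA per cell cannot be told apart.

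Promoters of these genes are shown for members that moved in opposite directions between Ag+Costim and Ag. RefSeq windows (GRCm38.p6, 250 bases before to 50 after a start) were matched by symbol for 83 of the 101 nuclear genes. Capitals mark letters searched on both strands, which were GCGCATGCG for NRF1, CCGGAAG for the ETS family that holds GABPA, and AAGATGGCG for YY1, all factors known from promoters of respiratory chain genes. The NRF1 letters nearly equal their own reverse complement, so their matches on the opposite strands overlap, while no match of 1 factor overlapped another factor's in these windows. Cox15 (chr19:43752951-43753250, minus strand), the gene of heme A synthase, and Uqcrc1 (chr9:108936398-108936697, plus strand), a core protein of complex III, are members called higher. Cox14 (chr15:99725368-99725667, plus strand), an assembly factor of complex IV, and Ndufaf8 (chr11:120098684-120098983, plus strand), an assembly factor of complex I, are members called lower.
Cox15: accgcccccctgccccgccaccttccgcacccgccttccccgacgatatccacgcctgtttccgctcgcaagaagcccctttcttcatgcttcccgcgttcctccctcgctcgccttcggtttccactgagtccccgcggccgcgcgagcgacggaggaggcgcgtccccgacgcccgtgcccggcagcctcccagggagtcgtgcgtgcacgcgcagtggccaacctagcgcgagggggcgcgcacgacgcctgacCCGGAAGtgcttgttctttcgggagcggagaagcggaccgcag
Uqcrc1: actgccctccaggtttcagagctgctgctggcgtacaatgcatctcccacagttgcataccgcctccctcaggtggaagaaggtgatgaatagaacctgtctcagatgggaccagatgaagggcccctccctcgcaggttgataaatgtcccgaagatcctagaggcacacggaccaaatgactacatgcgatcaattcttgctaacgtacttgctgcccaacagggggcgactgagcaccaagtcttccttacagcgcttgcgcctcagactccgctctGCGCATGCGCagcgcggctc
Cox14: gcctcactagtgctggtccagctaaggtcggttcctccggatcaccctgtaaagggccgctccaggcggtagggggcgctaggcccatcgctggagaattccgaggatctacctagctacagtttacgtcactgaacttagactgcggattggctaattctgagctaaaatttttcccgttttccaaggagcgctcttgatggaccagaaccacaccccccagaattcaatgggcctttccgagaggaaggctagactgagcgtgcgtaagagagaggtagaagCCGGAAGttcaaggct
Ndufaf8: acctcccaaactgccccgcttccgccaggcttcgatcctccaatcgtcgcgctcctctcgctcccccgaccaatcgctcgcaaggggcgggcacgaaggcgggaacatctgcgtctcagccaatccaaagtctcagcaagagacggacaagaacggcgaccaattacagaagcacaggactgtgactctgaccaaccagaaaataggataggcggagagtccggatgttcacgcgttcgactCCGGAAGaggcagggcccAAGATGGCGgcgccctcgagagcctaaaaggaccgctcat

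Over the 83 genes, the ETS letters were present in 26 (31.3%), the NRF1 letters in 10 (12%) and the YY1 letters in 9 (10.8%). Over all 27025 genes with a window, the shares were 9.93%, 1.95% and 1.64%. Both directions of the comparison of Ag+Costim with Ag included genes with the letters. Of 51 members called lower, 19 (37.3%) held the ETS letters, 5 (9.80%) the NRF1 letters and 7 (13.7%) the YY1 letters. Of 26 members not called, 6 (23.1%) held the ETS letters, 4 (15.4%) the NRF1 letters and 2 (7.69%) the YY1 letters. Of 6 members called higher that had a window, 1 held the ETS letters (Cox15), 1 the NRF1 letters (Uqcrc1) and 0 the YY1 letters. These counts describe letters in a window and were not tested.

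The first comparison asked how antigen without costimulation changed these genes, Ag against Naive. The nuclear genes were broadly higher in Ag. Of the 101 nuclear genes, 87 were called higher and 0 lower (quasi-likelihood test of edgeR, Benjamini-Hochberg adjusted p below 0.05). Over all 18817 genes tested, 24.2% were called higher and 22.5% lower. At an unadjusted p below 0.05, 0 nuclear genes were lower, and DESeq2 called 0 lower. The median log2 fold change was 0.85 for the nuclear genes and 0.02 for all genes. Every role took part, where roles were assigned from gene symbols. All 17 genes of ATP synthase and all 8 of complex III were called higher, as were 28 of 29 accessory subunits and 5 of 7 core subunits of complex I, 12 of 15 subunits of complex IV and 2 of 4 of complex II. The assembly factors were called higher in 7 of 8 cases for complex I, 3 of 4 for complex II and 5 of 9 for complex IV.

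**Figure D1:**
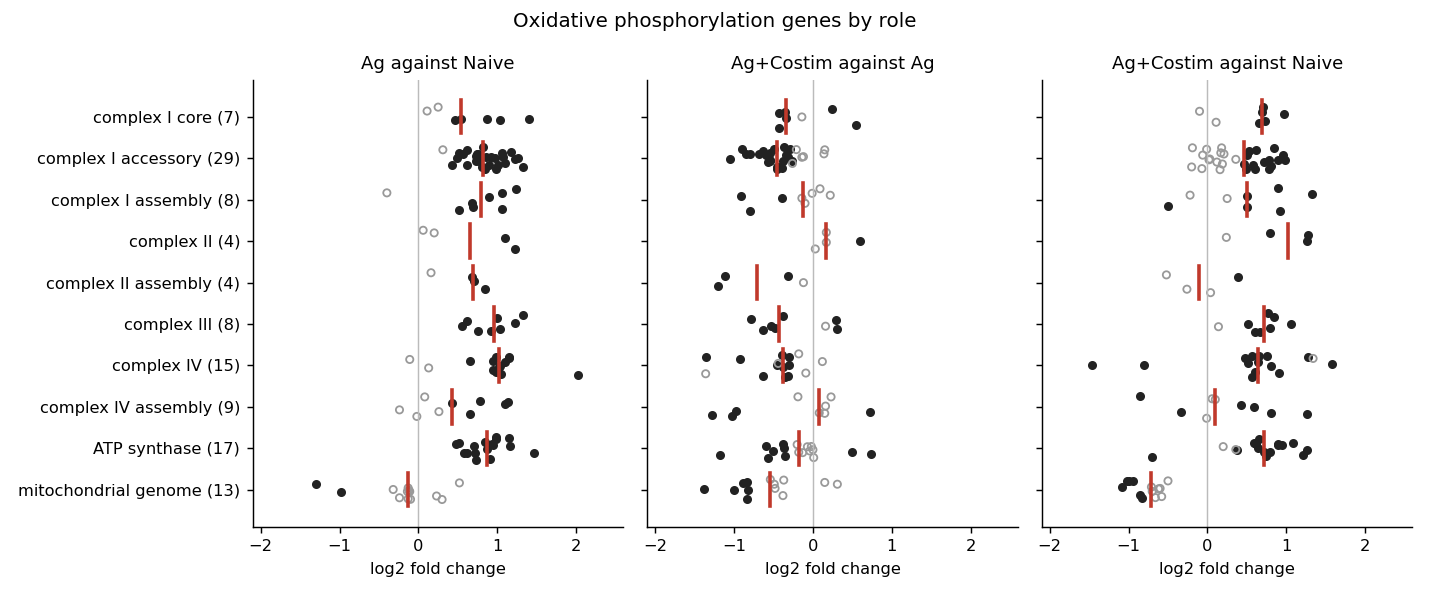
Each point is 1 member, placed by its log2 fold change (x axis) within its role (y axis, number of genes in parentheses) in the 3 comparisons. Filled points were called at an adjusted p below 0.05 and open points were not, and the red line is the median of the role. Nuclear roles lie right of 0 in Ag against Naive and mostly left of 0 in Ag+Costim against Ag, where complex II and the assembly factors of complex IV do not.

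Complex I receives electrons from NADH. Ndufs8, an iron-sulfur subunit of its core, had the largest rise of the core genes, from 101 and 89.3 CPM in Naive to 283, 248, 292, 192 and 238 in Ag. The groups did not overlap, and the log2 fold change was 1.40 (standard error 0.15, edgeR adjusted p = 8.56e-06). Ndufv1, which binds NADH, rose by 0.46. Ndufs1, the largest subunit, had 143 and 127 CPM in Naive and 151, 152, 150, 115 and 159 in Ag. Its groups overlapped and its log2 fold change was 0.11 (adjusted p = 0.515 from edgeR). Among accessory subunits Ndufb8 rose most, with a mean of 134 ± 9.12 CPM in Naive (SD, n = 2) and 337 ± 44.1 in Ag (SD, n = 5), with a log2 fold change of 1.33. Among assembly factors Ndufaf2 rose most, with a log2 fold change of 1.24. Ndufaf4 was the 1 assembly factor of complex I not called, with 48.5 and 47.0 CPM in Naive and 25.5 to 44.2 in Ag (log2 fold change -0.40, adjusted p = 0.102).

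Complex II differed among its own subunits. Sdhb, its iron-sulfur subunit, went from 184 and 165 CPM in Naive to 442, 381, 462, 350 and 406 in Ag, a log2 fold change of 1.23 (standard error 0.12, edgeR adjusted p = 3.51e-06). Sdhd, a membrane anchor, rose by 1.10. Sdha, the flavoprotein that oxidizes succinate, had 399 and 403 CPM in Naive and 428, 496, 478, 365 and 532 in Ag. The values overlapped, with a log2 fold change of 0.20 (adjusted p = 0.233), and Sdhc, the other anchor, had a log2 fold change of 0.06 (adjusted p = 0.688). Transcript lengths were 1141 bases for Sdhb and 1231 for Sdhd, and 2872 for Sdha and 3154 for Sdhc. Over all genes in this comparison, the median log2 fold change was 0.33 from 1000 to 2000 bases and -0.10 from 2000 to 4000. The part of length in the difference among these subunits was not tested. Of the assembly factors of complex II, Sdhaf4 rose most, by 0.85.

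In complex III the largest rise was that of Uqcr10, a small subunit, from 115 and 100 CPM in Naive to 307, 238, 317, 246 and 237 in Ag (log2 fold change 1.32, adjusted p = 9.68e-06 by edgeR). Uqcrfs1, the Rieske iron-sulfur protein, rose by 0.75 and Uqcrc1 by 0.55. In complex IV, Cox4i1 rose by 0.98 and Cox5a by 1.15 on the log2 scale. Cox7a1, best known from heart and muscle, had the largest value of the subunits that were called, 2.02, at low levels of 0.658 and 0.189 CPM in Naive and up to 2.29 in Ag. The value for Cox7a1 was 3.17 without Naive 1 and 1.39, no longer called, without Naive 2. Cox6a2, at 0.0 and 0.21 CPM in Naive and 0.435 to 1.03 in Ag, was not called (adjusted p = 0.121 by edgeR). Cox7a2l had 135 and 123 CPM in Naive and 119 to 162 in Ag (log2 fold change 0.13, adjusted p = 0.513 by edgeR). Among assembly factors Cox20, a chaperone of the subunit encoded by mt-Co2, rose most, by 1.13. Cox10, Cox11, Cox15 and Cox18 were not called. In ATP synthase, Atp5j, the coupling factor of its stalk, rose most, from 206 and 187 CPM to 628, 492, 626, 491 and 478 (log2 fold change 1.47, adjusted p = 2.63e-06 by edgeR). Atp5a1 and Atp5b, the alpha and beta subunits that form the catalytic head, rose by 0.71 and 0.52.

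The mitochondrially encoded genes did not follow the nuclear genes. In Ag against Naive, 0 of the 13 were called higher and 2 lower, with a median log2 fold change of -0.13. At an unadjusted p below 0.05, 0 were higher and 2 lower, and DESeq2 also called 0 higher and 2 lower. The 2 called lower were mt-Nd3, at -1.30 (standard error 0.38, edgeR adjusted p = 0.013), and mt-Nd4l, at -0.98 (standard error 0.33, edgeR adjusted p = 0.0255), both short subunit genes of complex I. Without Ag 4, 6 of the 13 were called lower and the median was -0.47. Without Naive 2, which leaves Naive with 1 library assumed to vary like the others, 0 were called lower, and without Ag 2, Ag 3 or Naive 1, 1 was. The median was 0.23 with a correction for base composition and 0.01 without Naive 2 or without Ag 5, so its sign depends on these choices. For the nuclear genes 89 were called higher and 1 lower without Ag 4.

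As a share of all annotated counts, the 13 genes took 0.980% and 1.19% in Naive, 1.09%, 0.803%, 0.727%, 1.96% and 0.623% in Ag 1 to 5, and 0.569%, 0.483%, 0.501%, 0.692% and 0.589% in Ag+Costim. Ag 4 was the highest of all libraries, and the ranges of Ag and Ag+Costim overlapped between 0.623% and 0.692%. The mean was 1.08% ± 0.147 in Naive (SD, n = 2), 1.04% ± 0.541 in Ag (SD, n = 5) and 0.567% ± 0.083 in Ag+Costim (SD, n = 5). Without Ag 4 the Ag mean was 0.81% ± 0.199. The 101 nuclear genes took 1.5% and 1.38% in Naive, 2.02% to 2.44% in Ag and 1.89% to 2.13% in Ag+Costim, with Ag 4 inside the range of its group at 2.27%. The ratio of mitochondrially encoded to nuclear counts was 0.652 and 0.862 in Naive, 0.297 to 0.449 in 4 Ag libraries, 0.862 in Ag 4 and 0.248 to 0.356 in Ag+Costim.

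**Figure D2:**
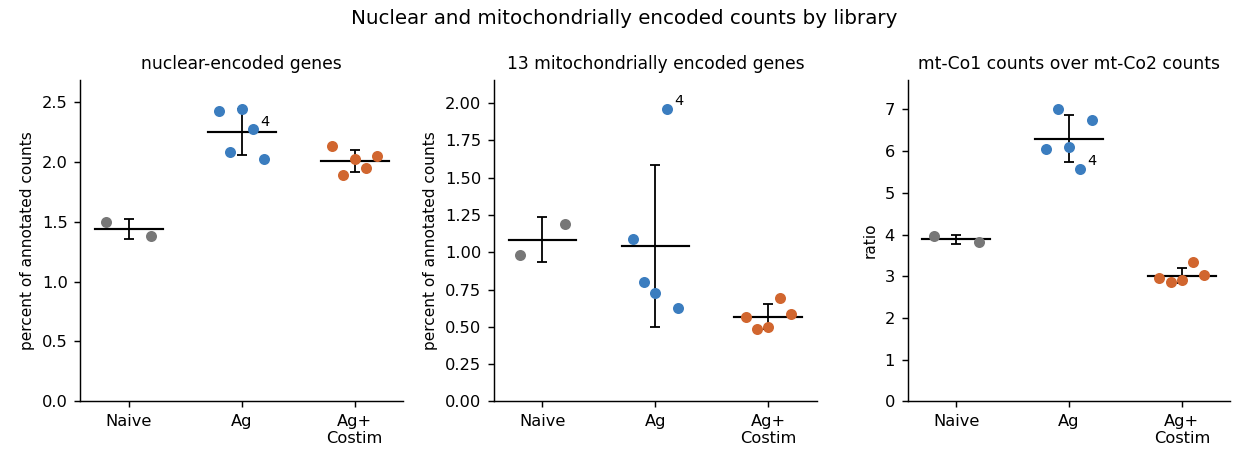
Each point is 1 library, the bars are group means and the error bars 1 SD, with Ag 4 marked 4. The left and middle panels give the percent of annotated counts on the nuclear and the mitochondrially encoded genes, and the right panel the ratio of mt-Co1 to mt-Co2 counts. In the middle panel Ag 4 lies at 1.96% and the other Ag libraries at 0.623% to 1.09%, while in the right panel Ag 4 lies with its group at 5.58.

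The make-up of the mitochondrially encoded counts, meaning the percent of the 13-gene total on each gene, differed between the groups, Ag 4 included. Shares within the 13-gene total do not depend on library scaling, and this measure was chosen after the values were seen and was not tested. The gene of the catalytic subunit of complex IV, mt-Co1, took 23.5% and 22.7% in Naive, 29.6%, 32.4%, 31.1%, 30.5% and 33.1% in Ag and 20.5%, 19.9%, 20.1%, 22.7% and 20.9% in Ag+Costim. The Ag libraries were the highest, Ag 4 included, with no overlap. The ATP synthase gene mt-Atp6 took 12.3% and 12.7% in Naive, 14% to 15.1% in Ag and 12.4% to 13.1% in Ag+Costim, while mt-Atp8 stayed between 2% and 2.34% in all libraries.

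Other genes took a smaller share in Ag than in both other groups. Shares of a fixed total are not independent, so the larger share of mt-Co1 in Ag by itself lowers the share left for the other genes. The part of this in each smaller share below was not tested. The ratio of mt-Nd3 to mt-Nd1 counts does not depend on mt-Co1. This ratio was 0.0435 and 0.0466 in Naive, 0.0146 to 0.0235 in Ag and 0.0317 to 0.0414 in Ag+Costim. For mt-Co2, the copper-binding subunit of complex IV, the range was 4.62% to 5.47% in Ag against 5.95% in both Naive libraries and 6.82% to 6.98% in Ag+Costim. The third complex IV gene, mt-Co3, took 9.99% to 10.8% in Ag against 11.7% and 12.1% in Naive and 12.9% to 13.3% in Ag+Costim. The complex III gene mt-Cytb took 15.7% to 17.0% in Ag, 18.8% and 19.5% in Naive and 19.5% to 21.0% in Ag+Costim. Among complex I genes, mt-Nd3 took 0.136% to 0.202% in Ag, 0.454% and 0.474% in Naive and 0.346% to 0.468% in Ag+Costim, and mt-Nd4l took 0.191% to 0.213%, 0.427% and 0.422%, and 0.373% to 0.411%. The range of mt-Nd5 was 3.63% to 4.18% in Ag, against 5.39% and 5.26% in Naive and 5.05% to 5.62% in Ag+Costim. For mt-Nd1, Ag (8.44% to 9.34%) and Ag+Costim (9.33% to 11.4%) overlapped slightly, with 10.4% and 10.2% in Naive. For mt-Nd2, mt-Nd4 and mt-Nd6 the shares of Naive were the highest or among the highest (2.95% and 2.70%, 4.32% in both, 1.73% and 1.60%), and Ag and Ag+Costim overlapped.

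**Figure D3:**
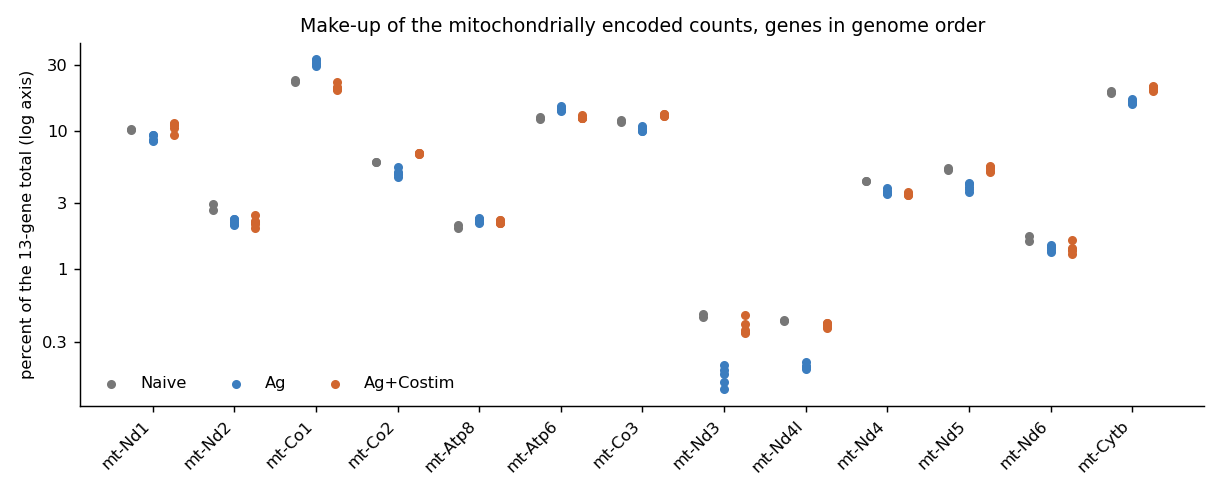
Each point is 1 library, placed by the percent of the 13-gene mitochondrial total (y axis, log scale) on the gene named below, with genes in the order of the mitochondrial genome. Ag lies above the other groups for mt-Co1 and mt-Atp6 and below them for mt-Co2, mt-Co3, mt-Nd3, mt-Nd4l, mt-Nd5 and mt-Cytb.

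Nearly identical nuclear copies are annotated for 9 of the 13 genes, so the split of reads between them is uncertain. The annotated nuclear copies of mt-Atp6, mt-Co3, mt-Nd3 and mt-Nd4l, found by sequence search, held as many counts as the genes themselves (100% to 101%), those of mt-Co2 held 109% and those of mt-Co1 39.6%, and mt-Atp8, mt-Cytb, mt-Nd1 and mt-Nd6 had no such copy. The copies held 0.201% to 0.896% of the counts of a library, highest in Ag 4. With the counts of copies added, an alternative chosen after seeing the data, the ratio of mt-Co1 to mt-Co2 was 2.61 and 2.48 in Naive, 3.86 to 4.81 in Ag and 1.79 to 2.13 in Ag+Costim, and the calls over the 13 genes numbered the same in each comparison. The genes mt-Atp8 and mt-Atp6, mt-Atp6 and mt-Co3, and mt-Nd4l and mt-Nd4 overlap on the same strand, and mt-Nd5 and mt-Nd6 overlap on opposite strands, which splits their reads uncertainly. Among the other products of the mitochondrial genome, 15 of 22 transfer RNA genes had lower calls and 0 higher calls against Naive in Ag, and neither ribosomal RNA gene was called. Over all genes in that comparison, 22.5% were called lower and 24.2% higher. The summed levels of the 22 genes overlapped, with 106 and 113 CPM in Naive and 75.2 to 218 in Ag. In Ag+Costim against Ag, 6 of the 22 were called higher and 4 lower, where 26.6% of all genes were called higher and 26.5% lower. The higher calls were thus near the share over all genes. As the kit selects RNA with a poly(A) tail, these counts are not a measure of mature transfer RNA.

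The second comparison asked what costimulation added to antigen, Ag+Costim against Ag. Most nuclear genes that were called were lower with costimulation, and a small set of genes with mostly longer transcripts was higher. Of the 101 nuclear genes, 8 were called higher and 58 lower, with a median log2 fold change of -0.35. Over all genes tested, 26.6% were called higher and 26.5% lower, with a median of -0.05. The 8 called higher were Atp5b (0.74), Cox15 (0.72), Sdha (0.60), Ndufs1 (0.55), Atp5a1 (0.50), Uqcrfs1 (0.31), Uqcrc1 (0.29) and Ndufv1 (0.24). The counts were 8 and 57 without Ag 4. Under upper-quartile scaling, which moves the median of all genes to -0.245 (4056 higher and 6338 lower), and to -0.176 in the comparison with Naive, the nuclear counts were 5 higher and 71 lower, and Uqcrfs1, Uqcrc1 and Ndufv1 were not called. With the correction for base composition, Uqcrc1 and Ndufv1 were not called.

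Transcript length moved with this result. The main transcripts of the nuclear genes had a median length of 870 bases, against 2251 bases over all genes, and 58 of them were shorter than 1000 bases. Of those 58, 0 were called higher and 44 lower (median log2 fold change -0.44), while of 22 genes with transcripts of 1500 bases or more, 7 were called higher and 3 lower (median 0.15). Across the 101 genes the log2 fold change had a Pearson correlation of 0.52 with log2 length, and of 0.18 across 18791 genes, where genes share libraries and are not independent. Over all genes the median log2 fold change was -0.36 for transcripts up to 500 bases, -0.37 from 500 to 1000, -0.30 from 1000 to 2000, 0.10 from 2000 to 4000 and 0.38 above. In Ag against Naive the correlation was -0.48 across the nuclear genes and -0.15 across all genes, and in Ag+Costim against Naive it was 0.04 and -0.01. Ag+Costim against Ag and Ag against Naive share the Ag libraries, with opposite sign, so their correlations are not independent. With a correction for length fitted over all genes, the nuclear calls in Ag+Costim against Ag were 25 higher and 27 lower, with a median of -0.06, so the excess of lower calls depends on this choice. Under the same correction the nuclear median in Ag against Naive was 0.59, with 76 called higher and 0 lower.

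**Figure D4:**
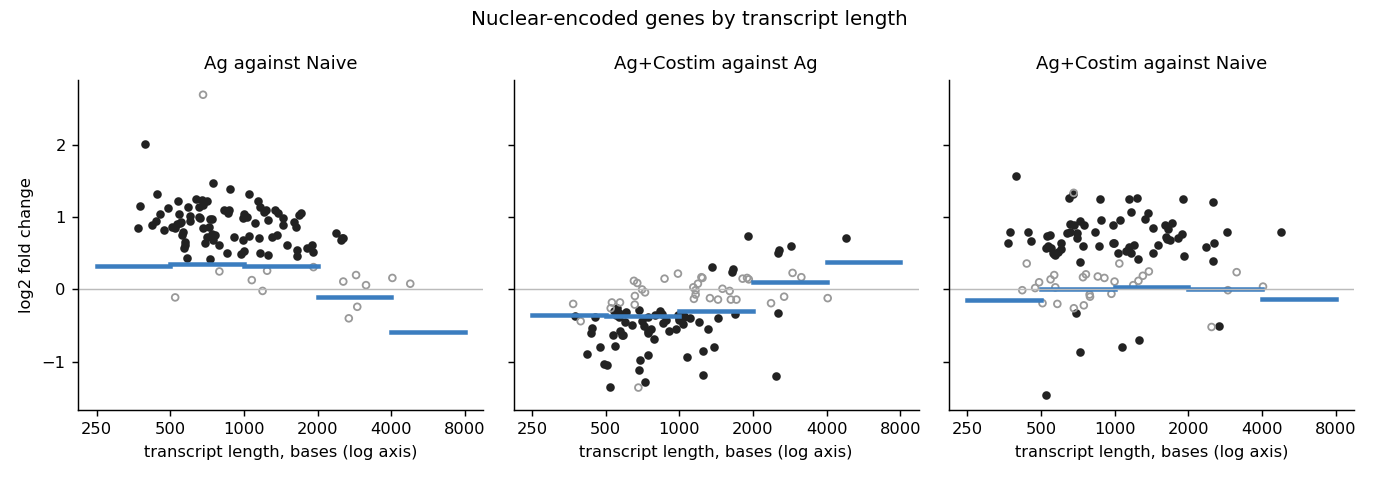
Each point is 1 nuclear gene, placed by the length of its main transcript (x axis, log scale) and its log2 fold change (y axis) in the 3 comparisons, filled where called. Blue steps are medians over all genes tested in bins of length, the outer bins drawn from 250 and to 8000 bases. In Ag+Costim against Ag the 58 genes under 1000 bases have a median of -0.44 and the all-gene steps run from -0.36 to 0.38.

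Of the genes called higher, Atp5b, on chromosome 10 (128083273 to 128090391 of mm10), had 1090 and 1040 CPM in Naive, 1700, 1560, 1660, 1300 and 1420 in Ag and 2610, 2640, 2760, 2170 and 2550 in Ag+Costim. All Ag+Costim libraries were above all others, and the log2 fold change against Ag was 0.74 (standard error 0.09, edgeR adjusted p = 1.62e-05). Its partner Atp5a1 had 1250, 1260, 1170, 960 and 1180 CPM in Ag and 1690, 1670, 1690, 1540 and 1640 in Ag+Costim, again without overlap. Sdha (chromosome 13, 74322254 to 74350280) had 636, 685, 726, 690 and 736 CPM in Ag+Costim, above the 365 to 532 of Ag (log2 fold change 0.60 with a standard error of 0.10, adjusted p = 0.000165 by edgeR). Ndufs1 (chromosome 1, 63143596 to 63176833) had 213, 221, 211, 189 and 228 CPM in Ag+Costim, above the 115 to 159 of Ag (log2 fold change 0.55 with a standard error of 0.09, adjusted p = 0.000267 by edgeR). With the length correction the values of Atp5b, Atp5a1, Sdha and Ndufs1 were 0.90, 0.43, 0.42 and 0.47, all called.

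Cox15 makes heme A, the cofactor of the catalytic subunit of complex IV. It had 43.3 and 44.1 CPM in Naive, 42.9, 49.5, 49.1, 46.1 and 43.0 in Ag and 74.0, 80.4, 78.1, 76.4 and 70.7 in Ag+Costim. Naive and Ag overlapped and Ag+Costim stood above both (log2 fold change against Ag 0.72 with a standard error of 0.07, adjusted p = 2.34e-06 by edgeR). Its main transcript, of 4783 bases, is long, and the value fell to 0.30 with the length correction, still called.

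Other assembly factors of complex IV moved the opposite way. Cox14 had 96.5 and 92.0 CPM in Naive, 133, 115, 154, 119 and 111 in Ag and 55.4, 43.0, 46.6, 61.9 and 52.2 in Ag+Costim. Ag+Costim was below both other groups without overlap (log2 fold change against Ag -1.28 with a standard error of 0.12, adjusted p = 8.44e-07 by edgeR). Cox20 fell by 1.03 and Cox16 by 0.98 on the log2 scale, and the remaining 5 factors (Cox10, Cox11, Cox17, Cox18, Cox19) were not called. With the length correction Cox14 still fell, by 0.97.

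**Figure D5:**
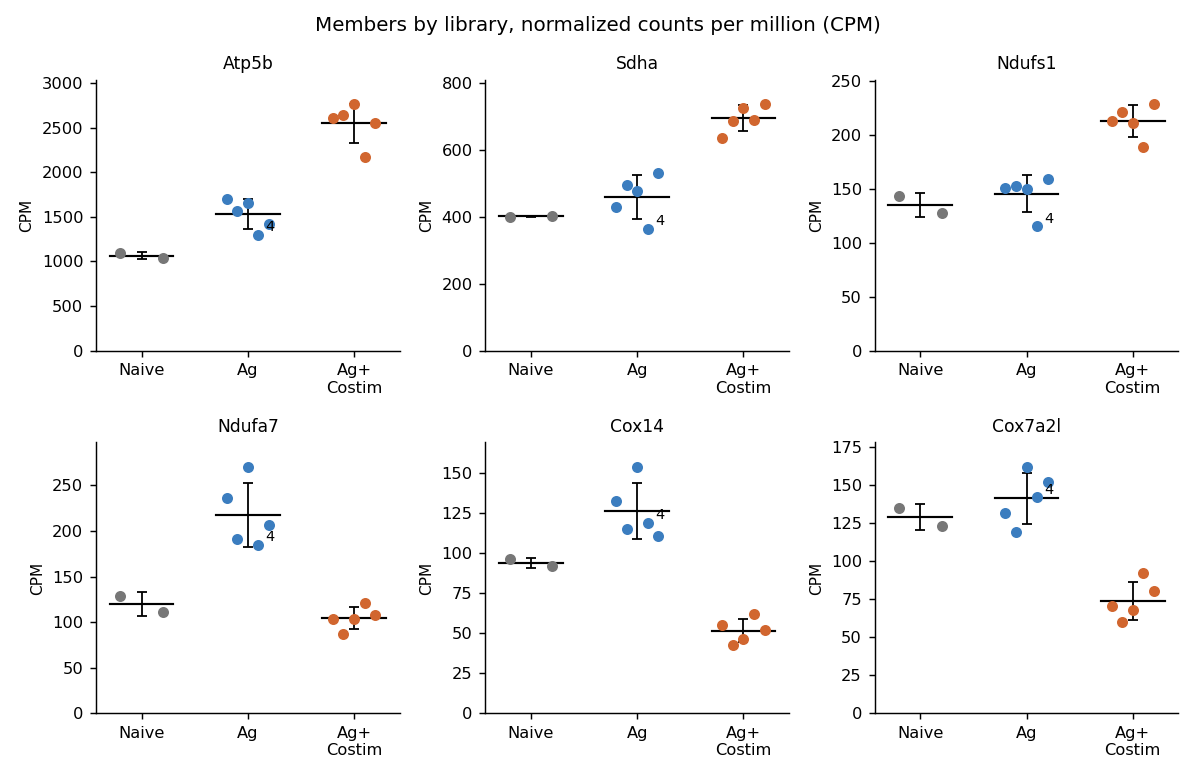
Each point is 1 library, the bars are group means and the error bars 1 SD, and the y axes give CPM from 0, with Ag 4 marked 4. Atp5b, Sdha and Ndufs1 are highest in Ag+Costim, whereas Ndufa7, Cox14 and Cox7a2l are lowest there, where those of Ndufa7 overlap Naive.

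Of 29 accessory subunits of complex I, 23 were called lower and 0 higher. Ndufa7 fell most, from 236, 191, 270, 185 and 207 CPM in Ag to 104, 87.4, 104, 121 and 108 in Ag+Costim, where Naive had 129 and 111. Its log2 fold change was -1.05 (standard error 0.12, edgeR adjusted p = 5.71e-06), and -0.74 with the length correction. In the core of complex I, Ndufs3 fell most, by 0.43, and 4 of 7 were called lower beside Ndufs1 and Ndufv1. Of its 8 assembly factors, Ndufaf8 fell from 60.5 to 80.6 CPM in Ag to 34.8 to 42.7 in Ag+Costim (-0.91), with Ndufaf3 and Ndufaf1 also called lower.

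In complex II no subunit was called lower, and Sdhb, Sdhc and Sdhd had values of 0.03, 0.17 and 0.17 that did not pass the test. Its assembly factor Sdhaf1, which serves the iron-sulfur subunit, went from 58.7, 55.9, 49.2, 33.2 and 39.4 CPM in Ag to 24.5, 22.6, 23.8, 16.3 and 16.1 in Ag+Costim, below the 30.7 and 28.4 of Naive. The groups did not overlap (-1.20 on the log2 scale with a standard error of 0.17, adjusted p = 5.71e-05 by edgeR). Sdhaf4 fell by 1.11 and Sdhaf2 by 0.32, and Sdhaf3 was not called. In complex III, 5 of 8 were called lower, most of all Uqcrh, the hinge protein, at -0.79.

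In complex IV, 10 of 15 genes placed among its subunits by symbol, Cox7a2l included, were called lower and 0 higher. Cox7a2l had 70.5, 59.9, 67.7, 92.2 and 80.3 CPM in Ag+Costim, against 119 to 162 in Ag and 135 and 123 in Naive. Ag+Costim was lowest without overlap (-0.93 on the log2 scale with a standard error of 0.12, adjusted p = 1.87e-05 by edgeR), and the value was -0.62 with the length correction. Cox4i1 fell by 0.38, and Cox5a was not called (0.12, adjusted p = 0.397). In ATP synthase 7 of 17 genes were called lower, 2 were called higher and 8 were not called. Atp5s, placed in this role by its symbol alone, fell most. It went from 13.9 to 21.2 CPM in Ag to 6.85 to 8.70 in Ag+Costim (-1.18).

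Summed over a complex, the levels in CPM were 7060 ± 717 in Ag and 7900 ± 361 in Ag+Costim for ATP synthase (SD, n = 5 each) and 1260 ± 127 and 1560 ± 64.4 for complex II. For the accessory subunits of complex I they were 5520 ± 684 and 4020 ± 246, for its core 1420 ± 156 and 1300 ± 45.1, for complex III 2110 ± 221 and 1850 ± 89.3, and for complex IV 4030 ± 530 and 3220 ± 232. These sums are led by their most abundant genes. In ATP synthase the sum was higher with costimulation although more of its genes were called lower than higher.

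In Ag+Costim against Ag, the calls among the 13 mitochondrially encoded genes were 0 higher and 6 lower, with a median log2 fold change of -0.54. At an unadjusted p below 0.05, 0 were higher and 7 lower, and DESeq2 called 0 higher and 7 lower. mt-Co1 had 3240, 2590, 2400, 5660 and 2110 CPM in Ag and 1190, 1000, 1060, 1630 and 1280 in Ag+Costim, without overlap (-1.38 on the log2 scale with a standard error of 0.24, adjusted p = 0.000276 by edgeR). The other 5 called lower were mt-Atp6 (-1.0), mt-Nd4 (-0.89), mt-Atp8 (-0.83), mt-Nd2 (-0.83) and mt-Nd6 (-0.82), each with overlapping groups. The values of mt-Nd1 (-0.54), mt-Cytb (-0.49), mt-Co3 (-0.48), mt-Nd5 (-0.38), mt-Co2 (-0.37), mt-Nd4l (0.15) and mt-Nd3 (0.31) did not pass. Without Ag 4, the count of lower calls was 6 again, mt-Co1 fell by 1.07, mt-Atp8 and mt-Nd4 by 0.53, mt-Nd2 by 0.48 and mt-Nd6 by 0.47, and mt-Nd3 (0.74) and mt-Nd4l (0.52) were called higher, with a median of -0.25 over the 13 genes. With the length correction 3 were called lower.

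The third comparison set Ag+Costim against Naive. Of the 101 nuclear genes, 66 were called higher and 6 lower, with a median log2 fold change of 0.59. Over all genes 26.9% were called higher and 25.4% lower, with a median of -0.02. The length correction changed little here, with 67 higher, 6 lower and a median of 0.58, while 41 were called higher without Naive 2. Among called genes, rises were largest for Cox7a1 (1.58; 2.73 without Naive 1, and not called at 0.94 without Naive 2 or 1.42 without Ag+Costim 5), Ndufaf2 (1.33), Sdhd (1.27), Atp5b (1.26), Cox17 (1.26), Uqcrfs1 (1.06), Ndufa12 (0.98), Ndufs8 (0.97) and Sdhaf2 (0.39) within their roles. Cox17 delivers copper to complex IV. Sdha, Ndufs1 and Cox15, whose groups overlapped between Ag and Naive, had values of 0.79, 0.65 and 0.80 here, all called higher. The 6 called lower were Cox6b2 (-1.46), Cox14 (-0.86), Cox7a2l (-0.80), Atp5s (-0.70), Ndufaf4 (-0.50) and Cox16 (-0.33). Of the accessory subunits of complex I, 15 of 29 were called higher and 0 lower.

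All 13 mitochondrially encoded genes had negative values against Naive, from -0.50 for mt-Co2 to -1.08 for mt-Nd2. The groups did not overlap for any of them, but the share of all genes without overlap was not counted. The 13 genes come from the same libraries and are not independent, so this lack of overlap is only a description. The test called 6 lower and 0 higher (mt-Co1, mt-Nd2, mt-Nd3, mt-Nd4, mt-Nd4l and mt-Nd6), with a median of -0.71. At an unadjusted p below 0.05, 9 were lower and 0 higher, and DESeq2 called 9 lower and 0 higher. Without Ag 4, which is not in this comparison but shares its estimate of spread, all 13 were called lower, and without Naive 2 or with the correction for base composition 0 were. Without Ag+Costim 2, Ag+Costim 3 or Naive 1, 2 or 3 were. The corresponding values for the other products of this genome were 16 of 22 transfer RNA genes and 1 of 2 ribosomal RNA genes called lower, with 0 higher. Over all genes in this comparison, 25.4% were called lower and 26.9% higher.

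Levels between paralogs were compared in FPKM, counts per length. Cox6a1 (878 ± 129 in Ag, SD, n = 5), Cox6b1 (690 ± 102), Cox7a2 (310 ± 44.0), Cox8a (713 ± 83.0), Cox4i1 (888 ± 128) and Ndufa4 (577 ± 89.8) were the main forms in Ag. Cox6a2 (0.978 ± 0.316), known from heart and muscle, Cox6b2 (3.21 ± 0.893), known from testis, and Cox7a1 (4.29 ± 1.35) were low. Cox7a2l stood at 129 ± 13.1 FPKM in Ag and 65.7 ± 11.1 in Ag+Costim, and Cox7b at 204 ± 26.6 and 151 ± 11.4. Among the genes that make the same mature subunit c of ATP synthase, Atp5g3 led with 659 ± 91.7 FPKM in Ag, then Atp5g1 with 258 ± 87.2 and Atp5g2 with 126 ± 13.5. In counts, Atp5g1, Atp5g2 and Atp5g3 were called higher in Ag than in Naive (0.61, 0.73 and 0.98), and none was called in Ag+Costim against Ag (0.01, -0.00 and -0.04). Annotated pseudogenes that share sequence held 25.7% of the counts of Atp5g1 and 57.2% of those of Atp5g2, and over 5% for 11 nuclear genes in all, among them Ndufa12 and Ndufs3, so these counts are uncertain. Another annotated gene overlaps 48 of the 101 nuclear genes, 14 on the same strand.

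Lists of the wider pathway, also chosen with earlier results known, are given here beside the shares over all genes in the same comparison, 26.6% called higher and 26.5% lower. Their values are given without the length correction. Over all genes in Ag+Costim against Ag, the median log2 fold change was -0.37 for transcripts of 500 to 1000 bases and 0.38 above 4000. The part of length in the values of these lists was not tested. In Ag+Costim against Ag, 8 of 13 citric acid cycle genes were called higher and 1 lower (median log2 fold change 0.60), among them Cs, citrate synthase (1.05). Of 10 nuclear regulators 7 were called higher and 0 lower (median 0.76), led by Pprc1 (2.75) and Ppargc1b (1.35), coactivators of the PGC-1 family, and including Nrf1 (0.70), Gabpa (0.62), Esrra (0.81) and Myc (0.89). In Ag against Naive, 1 of these 10 was called higher and 5 lower, with Pprc1 at -2.94 and Ppargc1b at -3.00. Over all genes in that comparison, 24.2% were called higher and 22.5% lower. Of 24 genes for mitochondrial transcription and RNA stability, 11 were called higher and 9 lower with costimulation. Polrmt, the mitochondrial RNA polymerase, was at 1.73, Lrpprc, which stabilizes mitochondrial messenger RNA, at 1.76, and Tfam at 0.13 (not called). The 9 called lower are not named here. Of 29 other assembly factors 7 were called higher and 13 lower. Those lower included Uqcc3 (-1.44), Pet100 (-1.41) and Surf1 (-0.89), and the 7 called higher are not named here. Of 17 genes for electron carriers and coenzyme Q synthesis 4 were called higher and 5 lower, near the shares over all genes, as were the higher calls among the other assembly factors. Cycs, cytochrome c, had 0.30 (adjusted p = 0.0584).

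Splicing and transcript ends were given by the study as Psi, the fraction of reads that include a node, with 1 value for Ag and 1 for Ag+Costim and so with no replicate check. Over the nodes of 93 members, 40 nodes (7.60%) in 14 genes differed by more than 0.05, against 19.1% of 115403 nodes over all genes. The genes given here were chosen after their values were seen. At Cox17 the upstream start node (chr16:38346991-38347021) went from 0.615 in Ag to 0.714 in Ag+Costim, and at Cox7c the node chr13:86046264-86046347 went from 0.741 to 0.887. At Ndufb2 the distal end node (chr6:39599472-39603382) went from 0.0265 to 0.221, and at Ndufaf1 an end node (chr2:119655451-119655792) from 0.114 to 0.246. Another annotated gene overlaps each of Ndufb2, Cox17 and Cox7c on the same strand. The part of its reads in these nodes was not tested. Of the 40 nodes, 15 were in Cox6b2, whose counts summed to 676 over all libraries.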

How the data were processed

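Bulk RNA-seq of 12 libraries was used: Naive (2), Ag (5) and Ag+Costim (5), grouped by their labels. Per the labels and methods, the authors aligned single-end reads to mm10 with HISAT2 2.1.0 and quantified them with StringTie 2.1.0. The deposited gene values are estimated counts that StringTie derives from coverage, and were rounded to whole numbers here. The deposited FPKM values, scaled by the authors for length and library size per transcript, were summed per gene. The deposited Psi values are fractions from Whippet, which the authors gave once for each group. That table also holds the authors' difference and probability columns, which were not used, although the probability had been planned as a filter. The authors compared expression with DESeq2 1.30.1.

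Identifiers were matched to GENCODE vM21 (55536 entries; 26345 unnamed entries, 0.0508% to 0.121% of the counts, were left out). Group means were modelled over the 12 libraries together in edgeR 4.0.16 in R 4.3.3 (TMM, filterByExpr, 18817 genes, robust quasi-likelihood test, two-sided, Benjamini-Hochberg over all genes, threshold 0.05). The step was tested on simulated counts. DESeq2 1.42.0, limma 3.58.1 on log2(FPKM + 1) and log2(FPKM + 0.1), upper-quartile scaling, no filter, library sizes without mitochondrial genes, 2 groups alone, corrections for length and base composition (splines with 5 degrees of freedom), the replicate block and leaving out each library were alternatives. Fold changes on FPKM understate changes of low genes. Copies were sought with blastn 2.17.0 (at least 100 bases, 95% identity for mitochondrial and 98% for nuclear genes). Replicates differed by more than counting noise. Figures used matplotlib 3.10.9. The members, gene lists and rule for named genes (the 13 mitochondrial genes, core subunits, paralog sets, the largest called rise and fall per role, and members with Psi differences) were chosen with earlier results of these data known. Some genes that this rule or the lists would name are not reported here.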

Additional observations from a re-analysis of the deposited data

Results flagged for a closer look

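Dixon's test at the 95% level was applied to 164 groups of 5 libraries (summed levels, ratios and named genes), and 7 groups (4.27%) held a library apart from the rest, where chance gives about 1 in 20. Ag 4 accounted for 4 of them. Its ratio of mitochondrially encoded to nuclear counts was 0.862, next to 0.449. Its counts on mt-Rnr1 and mt-Rnr2, the mitochondrial ribosomal RNAs, were 0.3% of the library, next to 0.1%. Its summed level of complex II was 1040 CPM, below 1290, and its Ndufs1 was 115 CPM, below 150. Ag+Costim 1 was highest in the summed level of the assembly factors of complex IV, 667 CPM next to 605, and in Cox17, 307 CPM next to 248. Ag+Costim 3 was highest in the ratio of counts on the nuclear copies of mt-Co2 to those on mt-Co2, 1.1 next to 1.09. For this ratio the test used rounded values, in which the other Ag+Costim libraries were all equal. This flag, counted among the 7, therefore cannot be told from an effect of rounding.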

How the results depend on the processing

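Over the alternatives, 2790 of 3036 values of named genes kept their direction and their side of the threshold, 116 were no longer past it, 62 passed it newly and 68 changed sign. Depth limits Cox6a2, Cox6b2 and Cox7a1 most, and with 2 Naive libraries the comparisons with Naive rest on each of them. The causes of the changes below were not tested.

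In Ag+Costim against Ag, upper-quartile scaling gave 5 members called higher, all nuclear, and medians of -0.57 for all members and -0.54 for nuclear ones. With the length correction 25 members were called higher and 30 lower (median -0.07), of which nuclear 25 and 27 (median -0.06) and mitochondrially encoded 3 lower. In Ag against Naive, the length correction gave medians of 0.53 for all members and 0.59 for nuclear ones. On FPKM with either pseudocount, 4 members were called lower, 2 of them nuclear, with medians of 0.65 for members and 0.68 for nuclear genes at pseudocount 1 and 0.70 for nuclear genes at 0.1. With 2 groups alone 1 member was called lower, mitochondrially encoded. With the correction for base composition 1 member was called lower, and of the mitochondrially encoded genes 2 higher and 1 lower, with a median of 0.23. In Ag+Costim against Naive, upper-quartile scaling gave medians of 0.37 and 0.44. With 2 groups alone 20 members were called lower, 13 of them mitochondrially encoded. With the correction for base composition 5 were called lower, and of the mitochondrially encoded genes 1 higher and 0 lower (median -0.20). FPKM gave 19 members called lower, 10 nuclear, with medians of 0.27 and 0.36 at pseudocount 1, 0.28 and 0.37 at 0.1, and -0.92 for the mitochondrially encoded genes. As a share of summed FPKM the mitochondrially encoded genes took 1.88% in Naive, 1.60% in Ag and 1.06% in Ag+Costim.

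Leaving out 1 library at a time gave these ranges. For mitochondrially encoded members called higher in Ag+Costim against Ag, it ran from 0 to 2. For members called lower in Ag against Naive, it ran from 0 to 7. For nuclear encoded members called lower in Ag against Naive, it ran from 0 to 1. For mitochondrially encoded members called lower in Ag against Naive, it ran from 0 to 6. For the median log2 fold change of mitochondrially encoded members in Ag against Naive, it ran from -0.47 to 0.01. For members called lower in Ag+Costim against Naive, it ran from 4 to 20. For members called higher in Ag+Costim against Naive, it ran from 41 to 69. For the median log2 fold change of members in Ag+Costim against Naive, it ran from 0.44 to 0.58. For nuclear encoded members called higher in Ag+Costim against Naive, it ran from 41 to 69. For the median log2 fold change of nuclear encoded members in Ag+Costim against Naive, it ran from 0.50 to 0.67. For mitochondrially encoded members called lower in Ag+Costim against Naive, it ran from 0 to 13. The highest mitochondrially encoded counts in these ranges came without Ag 4 and the lowest counts against Naive without Naive 2, and 41 members were called higher against Naive without Naive 2.

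Under upper-quartile scaling the sign changed in Ag+Costim against Ag for mt-Nd4l (-0.05), Sdhb (-0.16), Cox5a (-0.08), Atp5g1 (-0.19). Under the length correction the sign changed in Ag+Costim against Ag for Atp5g2 (0.32), Atp5g3 (0.29), Cox6a1 (0.15), Cox7a2 (0.24), Ndufa4 (0.01). Under the length correction the sign changed in Ag against Naive for mt-Atp6 (-0.06), Cox7a2l (-0.19). Under the correction for base composition the sign changed in Ag+Costim against Ag for Sdhb (-0.05), Atp5g1 (-0.05). Under the correction for base composition the sign changed in Ag against Naive for mt-Co2 (0.13), mt-Co3 (0.14), mt-Cytb (0.09), mt-Nd1 (0.23), mt-Nd2 (0.29), mt-Nd4 (0.41), mt-Nd5 (0.07), mt-Nd6 (0.60). Under the correction for base composition the sign changed in Ag+Costim against Naive for mt-Atp8 (0.66), mt-Nd3 (0.07). Under FPKM at pseudocount 1 the sign changed in Ag+Costim against Ag for Sdhb (-0.00), Atp5g1 (-0.08). Under FPKM at pseudocount 1 the sign changed in Ag against Naive for mt-Atp8 (-0.03), Ndufs1 (-0.08), Sdha (-0.07), Cox7a2l (-0.04). Under FPKM at pseudocount 0.1 the sign changed in Ag+Costim against Ag for Sdhb (-0.00), Atp5g1 (-0.08). Under FPKM at pseudocount 0.1 the sign changed in Ag against Naive for mt-Atp8 (-0.03), Ndufs1 (-0.08), Sdha (-0.07), Cox7a2l (-0.04). Under 2 groups alone the sign changed in Ag+Costim against Ag for Atp5g1 (-0.01). Under the replicate block the sign changed in Ag+Costim against Ag for Atp5g1 (-0.01). Under the replicate block the sign changed in Ag against Naive for Cox7a2l (-0.04). Under counts of near-identical copies added the sign changed in Ag+Costim against Ag for Atp5g1 (-0.00). Under no filter on low counts the sign changed in Ag+Costim against Ag for Atp5g2 (0.00). Leaving out 1 library changed the sign within these ranges: mt-Co2 in Ag+Costim against Ag (-0.51 to 0.01), Sdhb in Ag+Costim against Ag (-0.02 to 0.08), Atp5g1 in Ag+Costim against Ag (-0.04 to 0.10), Atp5g2 in Ag+Costim against Ag (-0.07 to 0.04), Atp5g3 in Ag+Costim against Ag (-0.10 to 0.02), mt-Atp6 in Ag against Naive (-0.01 to 0.46), mt-Atp8 in Ag against Naive (-0.07 to 0.40), mt-Co2 in Ag against Naive (-0.51 to 0.01), mt-Co3 in Ag against Naive (-0.43 to 0.06), mt-Cytb in Ag against Naive (-0.46 to 0.03), mt-Nd1 in Ag against Naive (-0.42 to 0.02), mt-Nd4 in Ag against Naive (-0.49 to 0.01), mt-Nd6 in Ag against Naive (-0.47 to 0.02).

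Residuals of same-numbered Ag and Ag+Costim libraries correlated weakly, at 0.10, 0.07, 0.05, 0.02 and 0.02. Numbers 1 to 3 matched best with their own, and numbers 4 and 5 did not. These values do not settle whether the replicate numbers pair the libraries. With the replicate block, nuclear calls in Ag+Costim against Ag were 7 higher and 58 lower, 86 and 0 in Ag against Naive and 63 and 5 in Ag+Costim against Naive.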
